A study of Homo sapiens with 22 samples.

Results

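The genes described here mark or drive the epithelial-mesenchymal transition (EMT). They are the transcription factors ZEB1, ZEB2, SNAI1, SNAI2 and TWIST1, the filament protein vimentin (VIM), the cadherins CDH1 and CDH2, and the surface glycoprotein EPCAM. They were chosen by gene symbol and are 9 of the 60669 genes listed in the series. All 9 are listed in the tables called here the knockdown table and the DMSO table, and 6 are listed in the table called the CTRL table, which holds 14954 genes.

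The libraries came from MDA-MB-231, an established triple-negative breast cancer cell line with a mesenchymal-like shape, labelled wild type in genotype; the series is about BET inhibition and the complex, METTL3 among its subunits, that writes N6-methyladenosine into RNA. Each of the 11 groups had 2 libraries, and the labels do not say whether these were separate cultures, so p-values measure the spread between these libraries, which may be technical. The knockdown table holds 4 groups kept for 2 to 3 months: shM3 with METTL3-WT added back (shM3_WT), shM3 with METTL3-CD added back (shM3_CD), shM3 alone, and B5, whose label carries no shM3. The labels spell out neither B5 nor CD, do not say whether the lines are clones, and describe lentiviral infection in general terms. The DMSO table holds cells given 0.5 µM I-BET151, 0.5 µM MOLIB (Molib) or 0.5 µM JQ1 for 3 days, and cells given the solvent DMSO for 3 days. The CTRL table holds cells labelled MW-JQ1 (MW_JQ1) and JQ1, both given 0.5 µM JQ1 for 3 days, and a control labelled CTRL at 3 days. What MW stands for is not given. JQ1, which has a thienotriazolodiazepine core, and I-BET151, which has a dimethylisoxazole on a quinoline core, are both inhibitors of BET proteins. The columns named JQ1 in the DMSO table match 2 labelled JQ1 pairs; they were taken by elimination as the pair not in the CTRL table, and are called a and b because their replicate numbers are not known.

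In an epithelial cell, E-cadherin (CDH1) at the adherens junction binds the same protein on the neighbouring cell and is tied to actin through catenins. ZEB, SNAIL and TWIST family factors bind E-box motifs, repress CDH1 and other junction genes, and are induced by signals such as TGF-beta, while N-cadherin (CDH2) and vimentin become abundant. MDA-MB-231 is a textbook mesenchymal-like line in which CDH1 is lost and vimentin is abundant, and EPCAM is an epithelial adhesion protein that such lines keep at low levels.

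Levels are given in FPKM, fragments per kilobase of gene scaled to the library's total, so they can be compared between genes. The label of the cell line was checked against its markers. In the knockdown and DMSO tables, with 16 libraries, VIM was between 549 and 1627 FPKM and CDH1 between 0 and 0.416 FPKM. Of 6 basal or mesenchymal-like markers, 5 were at a mean of 1 FPKM or more in every group of these tables, with summed levels of 470 to 883 FPKM, and luminal keratins gave 9 luminal markers a summed level of 600 to 1640 FPKM while ESR1 was at 0 in both libraries of the DMSO and Molib groups. Haematopoietic markers summed to 0.441 to 16.9 FPKM, with CD3E at 0 in every group, and fibroblast and endothelial markers to 1.87 to 9.71 FPKM. The highest haematopoietic sum was almost all CD14, at 16.8 and 6.71 FPKM in B5 and 4.28 and 4.46 FPKM in shM3.

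METTL3, the targeted gene, followed its labels. It was at 312 and 311 FPKM in shM3_WT, 277 and 270.5 FPKM in shM3_CD, 4.39 and 4.80 FPKM in shM3, and 20.1 and 23.8 FPKM in B5 libraries. In the libraries labelled I-BET151, HEXIM1, a gene that BET inhibitors usually raise, was at 10.3 and 6.37 FPKM, with 72.9 and 69.6 FPKM in Molib, 73.8 and 76.7 FPKM in JQ1 and 26.5 and 29.4 FPKM in DMSO libraries. The I-BET151 libraries are called by their label throughout, and each direction given for them rests on it. In MW_JQ1 libraries 1.85 and 2.05% of the genes listed in the CTRL table were at 0, and the JQ1 and CTRL libraries stand apart with 22.6 to 35.4% and with replicate correlations of 0.777 for JQ1 and 0.746 for CTRL, against 0.977 to 0.987 in the other groups of the series. In B5 replicate 2, PIDD1 alone was listed at 8230000 FPKM, and the other genes summed to 423171 FPKM.

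Promoter windows are shown for the members with an entry in the RefSeq promoter table (GRCh38.p14), because the E-box CAGGTG, or CACCTG on the other strand, is the motif that ZEB and SNAIL factors bind. A window spans 250 bases before to 50 after an annotated start, 5′ to 3′ on the gene's strand, with each E-box in capitals. ZEB1 has 7 windows, CDH2 has 2, and ZEB2 and VIM have 1 each. Of the ZEB1 windows, 2 hold the motif, and the one printed holds 3 copies, at positions -242, -85 and 34 from the start. Its neighbour at chr10:31318167-31318466 (+) holds 1, at position -57. Neither spelling of the motif stands in the ZEB2, VIM and CDH2 windows.
ZEB1, chr10:31318966-31319265 (+): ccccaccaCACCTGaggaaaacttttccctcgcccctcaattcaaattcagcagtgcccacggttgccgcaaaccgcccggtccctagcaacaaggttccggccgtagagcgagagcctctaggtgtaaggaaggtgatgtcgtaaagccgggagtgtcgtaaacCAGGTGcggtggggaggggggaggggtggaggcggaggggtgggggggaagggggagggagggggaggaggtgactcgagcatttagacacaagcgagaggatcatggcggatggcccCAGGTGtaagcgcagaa
ZEB2, chr2:144520070-144520369 (-): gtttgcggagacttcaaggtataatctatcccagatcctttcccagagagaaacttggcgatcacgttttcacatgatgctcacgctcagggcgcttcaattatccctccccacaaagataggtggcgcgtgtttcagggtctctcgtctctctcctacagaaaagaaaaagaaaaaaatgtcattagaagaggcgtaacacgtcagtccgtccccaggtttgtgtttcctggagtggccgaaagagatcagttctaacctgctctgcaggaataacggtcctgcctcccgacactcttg
VIM, chr10:17227991-17228290 (+): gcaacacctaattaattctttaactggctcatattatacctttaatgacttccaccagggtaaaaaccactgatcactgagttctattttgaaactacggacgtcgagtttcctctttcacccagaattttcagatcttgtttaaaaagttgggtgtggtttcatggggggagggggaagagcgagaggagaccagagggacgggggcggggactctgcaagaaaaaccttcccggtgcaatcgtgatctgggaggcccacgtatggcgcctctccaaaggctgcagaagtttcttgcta
CDH2, chr18:28177081-28177380 (-): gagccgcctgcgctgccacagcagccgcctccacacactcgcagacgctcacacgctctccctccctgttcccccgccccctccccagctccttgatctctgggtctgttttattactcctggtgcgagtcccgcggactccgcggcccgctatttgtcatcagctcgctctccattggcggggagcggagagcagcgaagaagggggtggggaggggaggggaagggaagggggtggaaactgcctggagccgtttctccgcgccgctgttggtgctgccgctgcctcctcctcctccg
Over all 35116 windows of the same length, 20.6% hold at least 1 copy and 0.635% hold 3 or more. These shares are for any window, whereas the ZEB1 window printed is the one with the most copies among 7. Whether ZEB1 is rich in the motif was not tested. CDH1, EPCAM, SNAI1, SNAI2 and TWIST1 are named only.

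In the knockdown table, VIM fell in shM3 against B5. CDH2 was called higher there, but it reached 1 FPKM only in libraries carrying shM3, so the filter on low genes left it no other direction. With METTL3-WT added back, VIM rose, and SNAI2 and EPCAM fell, against shM3, while with METTL3-CD added back only EPCAM of the members tested passed the threshold. CDH1, SNAI1 and TWIST1 did not reach the filter level. Tests used limma on log2(FPKM + 1), with a gene called at a Benjamini-Hochberg adjusted p under 0.05 over all 14638 genes that reached 1 FPKM in at least 2 libraries, and 6 of the 9 members reached that level. Since these are bulk libraries, fewer cells with a transcript and less transcript per cell cannot be told apart.

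In shM3 against B5, 2 of the 6 members tested were called, 1 higher (CDH2, whose direction the filter fixed) and 1 lower, where 37.8% of all genes tested were called, 17.9% higher and 19.9% lower. In shM3_WT against shM3, 1 was higher and 2 lower, where 39.4% of all genes were called, 16.7% higher and 22.7% lower. In shM3_CD against shM3, none was higher and 1 lower, where 11.4% were called, 6.82% higher and 4.59% lower. In shM3_WT against shM3_CD, 1 was higher and 1 lower, where 25.9% were called, 10.2% higher and 15.7% lower. In the comparisons with B5 that follow, CDH2 was again among the higher members. It reached 1 FPKM in no B5 library, so the filter favoured that direction. In shM3_WT against B5, 1 was higher (CDH2) and 2 lower, where 30.0% were called, 11.8% higher and 18.2% lower. In shM3_CD against B5, 2 were higher and 2 lower (2 in all without B5 replicate 2 or shM3_CD replicate 2), where 29.9% were called, 14.8% higher and 15.2% lower.

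**Figure D1:**
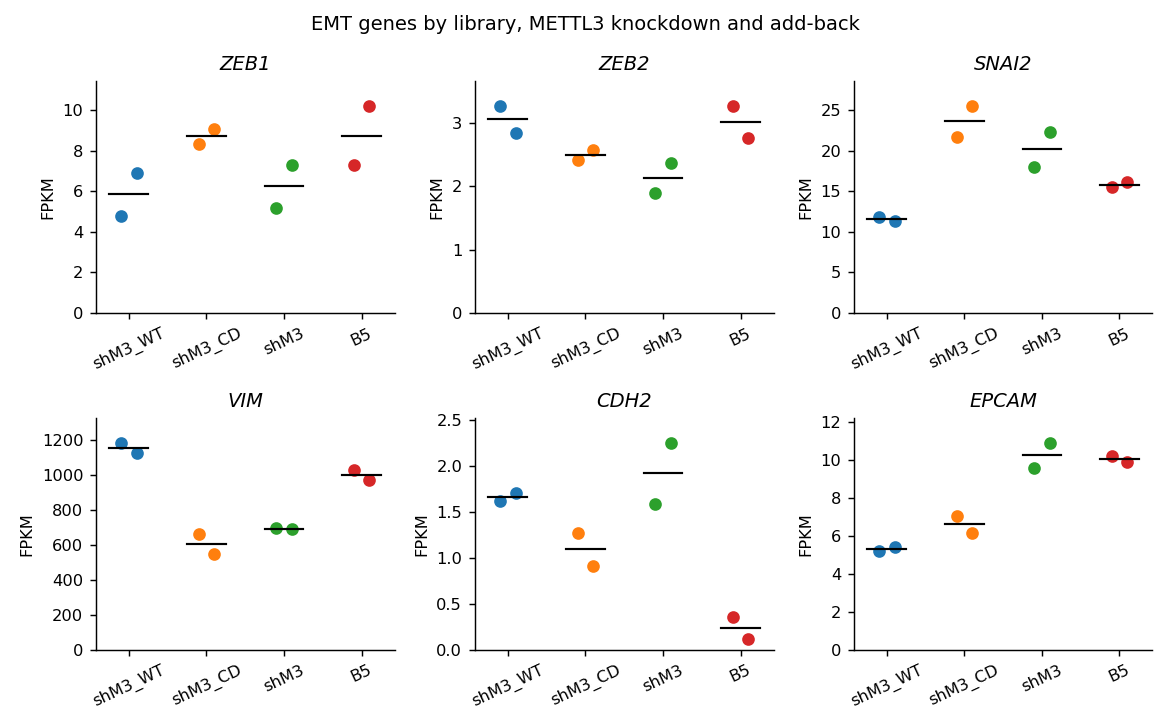
FPKM of the 6 members tested in the knockdown table, with 1 point for each library, a line at the mean of the 2 libraries and axes that start at 0. VIM is highest in shM3_WT at 1183 and 1121 FPKM, SNAI2 runs the other way with 11.8 and 11.3 FPKM there, and CDH2 is lowest in B5 at 0.357 and 0.112 FPKM.

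ZEB1, a zinc-finger repressor of CDH1 (chromosome 10, 31318495 to 31529814, plus strand, hg38), was at 4.80 and 6.89 FPKM in shM3_WT libraries, 8.32 and 9.07 FPKM in shM3_CD, 5.18 and 7.29 FPKM in shM3, and 7.28 and 10.2 FPKM in B5. The shM3 and B5 libraries overlapped by a narrow margin, and shM3_CD lay above both shM3 libraries. The log2 fold change was -0.43 ± 0.22 (SE) in shM3 against B5 (adjusted p = 0.17) and 0.44 ± 0.22 in shM3_CD against shM3 (adjusted p = 0.25). The larger differences were those of shM3_WT, at -0.52 ± 0.22 against shM3_CD (adjusted p = 0.13) and -0.51 ± 0.22 against B5 (adjusted p = 0.12), and none of these was called.

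ZEB2, the other ZEB family repressor (chromosome 2, 144364364 to 144524583, minus strand), was at 3.27 and 2.85 FPKM in shM3_WT, 2.41 and 2.57 FPKM in shM3_CD, 1.89 and 2.37 FPKM in shM3, and 3.27 and 2.76 FPKM in B5. Both shM3 libraries were below every library of the other groups. The difference was not called in shM3 against B5, at -0.36 ± 0.14 on the log2 scale (adjusted p = 0.080), nor in shM3_WT against shM3, at 0.38 ± 0.14 (adjusted p = 0.068). With the libraries scaled to equal medians the last difference was called, at 0.45 (adjusted p = 0.0403).

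SNAI2 (Slug), a SNAIL family repressor on chromosome 8 (48917604 to 48921740, minus strand), was at 11.8 and 11.3 FPKM in shM3_WT, 21.7 and 25.5 FPKM in shM3_CD, 18.0 and 22.3 FPKM in shM3, and 15.5 and 16.1 FPKM in B5. The shM3_WT libraries were the lowest and did not overlap any other group. SNAI2 was 0.571 times as high in shM3_WT as in shM3, a log2 fold change of -0.75 ± 0.12 (adjusted p = 0.0035), and 0.488 times as high as in shM3_CD (-0.97 ± 0.12, adjusted p = 0.0027). In the order of levels shM3_CD, shM3, B5 and shM3_WT, the neighbours shM3_CD and shM3 were not distinguished (0.22 ± 0.12, adjusted p = 0.30), nor were shM3 and B5 (0.33 ± 0.12, adjusted p = 0.078). Without shM3 replicate 1 that last difference was called, at 0.47 (adjusted p = 0.0441). SNAI2 was called higher in shM3_CD than in B5 (0.55 ± 0.12, adjusted p = 0.017), but not without B5 replicate 1 (0.52, adjusted p = 0.0647), B5 replicate 2 (0.57, adjusted p = 0.0539) or shM3_CD replicate 2 (0.44, adjusted p = 0.0942). SNAI2 in shM3_WT was called lower than in B5 (-0.42 ± 0.12, adjusted p = 0.040), but not under equal medians (-0.31, adjusted p = 0.090), not with no filter (adjusted p = 0.0746) and not without any 1 of the 4 libraries, for example at -0.39 (adjusted p = 0.148) without shM3_WT replicate 2.

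SNAI1 (Snail), the founding SNAIL family repressor on chromosome 20 (49982999 to 49988886, plus strand), stayed under 1 FPKM, at 0.311 and 0.0913 FPKM in shM3_WT, 0.156 and 0.204 FPKM in shM3_CD, 0.274 and 0.319 FPKM in shM3, and 0.552 and 0.454 FPKM in B5. B5 held the highest values. At the step of the lowest listed values these levels amount to roughly 3 to 12 fragments a library, and the gene was left out by the filter. With no filter it was not called, at -0.21 ± 0.10 in shM3 against B5 (adjusted p = 0.22) and an adjusted p of 0.075 or more in the 6 comparisons of the table. TWIST1, a basic helix-loop-helix factor on chromosome 7 (19020991 to 19117672, minus strand), was listed at 0 in all 8 libraries of the table.

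VIM, the type III intermediate filament protein of mesenchymal cells (chromosome 10, 17228259 to 17237593, plus strand), was by far the most abundant member. It was at 1183 and 1121 FPKM in shM3_WT, 661 and 549 FPKM in shM3_CD, 696 and 689 FPKM in shM3, and 1025 and 971 FPKM in B5. The shM3_WT and B5 libraries formed a high pair of groups and the shM3 and shM3_CD libraries a low pair, with no overlap between them. VIM averaged 692 ± 5.32 FPKM in shM3 and 998 ± 37.8 FPKM in B5 (SD, n = 2 each), a log2 fold change of -0.53 ± 0.10 (adjusted p = 0.0062). It was 1.66 times as high in shM3_WT as in shM3 (0.73 ± 0.10, adjusted p = 0.0015) and 1.91 times as high as in shM3_CD (0.93 ± 0.10, adjusted p = 0.0016). VIM was also lower in shM3_CD than in B5 (-0.73 ± 0.10, adjusted p = 0.0025). Neither shM3_WT against B5 (0.21 ± 0.10, adjusted p = 0.16) nor shM3_CD against shM3 (-0.20 ± 0.10, adjusted p = 0.24) was called, so the neighbours within each pair were not distinguished.

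The antisense gene VIM-AS1 overlaps VIM over 1727 bases (chromosome 10, 17228259 to 17229985), and whether fragments were counted by strand is not given. VIM-AS1 was high in 1 library of each group of this table and low in the other, at 34.6 and 341.5 FPKM in shM3 and 65.3 and 549.9 FPKM in B5, which put its ratio to VIM at 0.050 and 0.50 in shM3 and 0.064 and 0.57 in B5. ZEB1-AS1, which overlaps ZEB1 over 1953 bases, was between 1.24 and 4.4 FPKM, and ZEB2-AS1 was at 0 to 0.0524 FPKM. If strand was not used, reads of these pairs cannot be told apart where they overlap.

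CDH2 (N-cadherin), the cadherin that mesenchymal and neural cells carry (chromosome 18, 27950966 to 28177446, minus strand), was at 1.62 and 1.70 FPKM in shM3_WT, 1.27 and 0.912 FPKM in shM3_CD, 1.58 and 2.25 FPKM in shM3, and 0.357 and 0.112 FPKM in B5. The B5 libraries were below all others. The log2 fold change in shM3 against B5 was 1.24 ± 0.18 on the log2(FPKM + 1) scale (adjusted p = 0.0024), and with no filter on low genes its adjusted p was 0.00809. The ratio of mean FPKM, 8.15, rests on B5 values of few fragments, and was 17.1 without B5 replicate 1 and 5.36 without B5 replicate 2. It was also called higher than in B5 in shM3_WT (1.11 ± 0.18, adjusted p = 0.0049) and in shM3_CD (0.76 ± 0.18, adjusted p = 0.020), the last not without B5 replicate 2 (0.62, adjusted p = 0.0872) or shM3_CD replicate 1 (0.64, adjusted p = 0.108), nor with those groups fitted alone (adjusted p = 0.0534). CDH2 reached 1 FPKM only in libraries carrying shM3, so it entered the test only through these, and its levels correspond to roughly 6.6 to 140 fragments a library. Adding METTL3 back did not bring a called difference from shM3 in either form, at -0.12 ± 0.18 for shM3_WT (adjusted p = 0.63) and -0.47 ± 0.18 for shM3_CD (adjusted p = 0.14).

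CDH1 (E-cadherin), the epithelial cadherin and main target of the EMT factors (chromosome 16, 68737225 to 68835548, plus strand), was at 0.102 and 0.192 FPKM in shM3_WT, 0.197 and 0.200 FPKM in shM3_CD, 0.120 and 0.251 FPKM in shM3, and 0.0161 and 0.199 FPKM in B5. All 8 values lay under 0.3 FPKM and the groups overlapped, apart from shM3_CD against shM3_WT. With no filter CDH1 had an adjusted p of 0.51 or more in the 6 comparisons. A difference in CDH1 could not be shown at this level, which amounts to roughly 1 to 18 fragments a library.

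EPCAM, an epithelial cell adhesion and signalling protein (chromosome 2, 47345158 to 47387601, plus strand), was at 5.22 and 5.39 FPKM in shM3_WT, 7.03 and 6.17 FPKM in shM3_CD, 9.55 and 10.9 FPKM in shM3, and 10.2 and 9.88 FPKM in B5. Both groups with METTL3 added back lay below shM3 and B5, which overlapped each other. EPCAM was 0.519 times as high in shM3_WT as in shM3 (-0.83 ± 0.11, adjusted p = 0.0013) and 0.645 times as high in shM3_CD as in shM3 (-0.56 ± 0.11, adjusted p = 0.020). The second call was lost with those groups fitted alone (adjusted p = 0.0565) and without any 1 of the 4 libraries, at -0.65 without shM3 replicate 1 (adjusted p = 0.0565), -0.48 without shM3 replicate 2 (adjusted p = 0.111), -0.64 without shM3_CD replicate 1 (adjusted p = 0.0597) and -0.48 without shM3_CD replicate 2 (adjusted p = 0.115). Against B5, EPCAM was called lower in shM3_WT (-0.81 ± 0.11, adjusted p = 0.0022) and in shM3_CD (-0.54 ± 0.11, adjusted p = 0.010), the last not without shM3_CD replicate 2 (-0.46, adjusted p = 0.0655). In shM3 against B5 the difference was 0.02, with a 95% interval of -0.23 to 0.27.

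**Figure D2:**
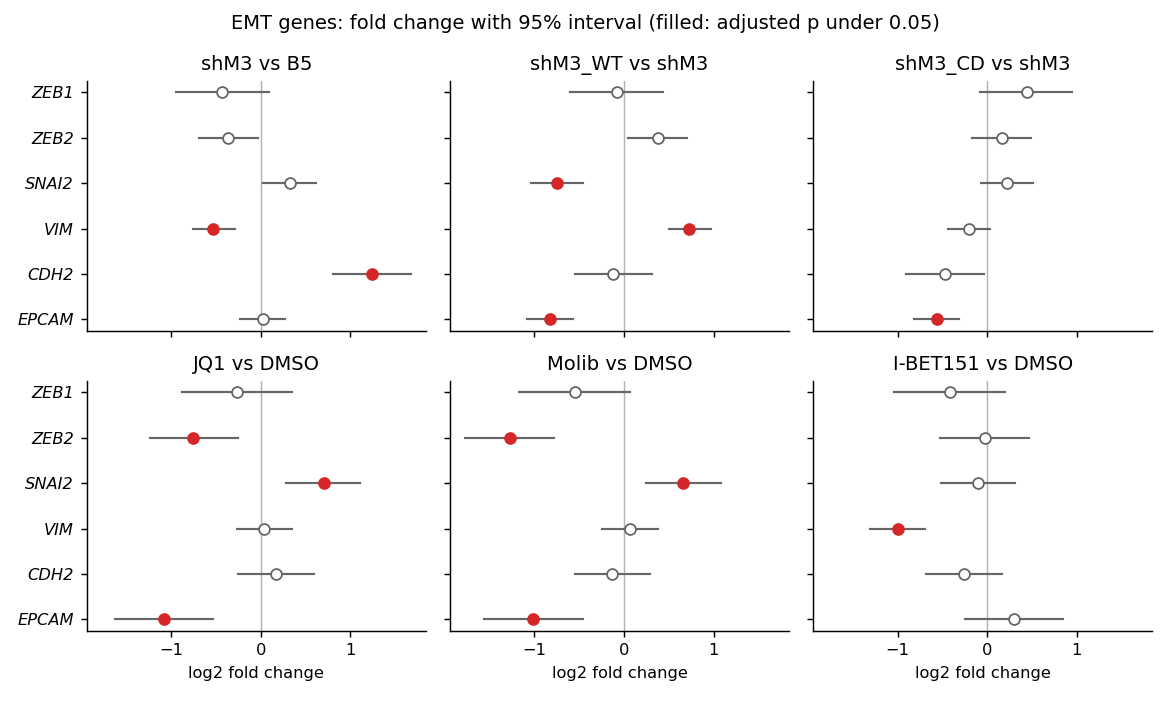
Log2 fold change on the log2(FPKM + 1) scale (x axis) of the 6 members tested (y axis) in 6 comparisons, with lines for the limma 95% interval and filled points for adjusted p under 0.05. VIM and SNAI2 lie on opposite sides of 0 in shM3_WT against shM3, and ZEB2 and EPCAM are called left of 0 for JQ1 and Molib, while for I-BET151 neither is called (-0.03 for ZEB2 and 0.30 for EPCAM).

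The epithelial programme is the set of junction and adhesion genes that EMT factors repress. Counts in this and the following gene lists of the knockdown table are to be read against the share of all genes called. That share was 37.8% in shM3 against B5 and 39.4% in shM3_WT against shM3. It was 11.4% in shM3_CD against shM3 and 25.9% in shM3_WT against shM3_CD. Of 30 such genes, 17 were tested. In shM3 against B5, 8 were higher and 1 lower, with a median log2 fold change of 0.36, against 0.00 over all genes. The tight junction gene CLDN1 averaged 7.13 ± 0.028 FPKM in shM3 and 2.59 ± 0.248 FPKM in B5 (1.18 ± 0.10, adjusted p = 0.00028), and the desmosomal plaque gene DSP 42.0 ± 2.78 FPKM in shM3 and 20.1 ± 2.23 FPKM in B5 (1.03 ± 0.10, adjusted p = 0.00039). CGN (0.81 ± 0.17, adjusted p = 0.011) and OCLN (0.76 ± 0.16, adjusted p = 0.011), which encode the tight junction proteins cingulin and occludin, also rose. Leaving out 1 library in turn left 3 to 6 genes higher, 3 of them without either shM3 library. The lower gene, the protease inhibitor SPINT2, was not called without B5 replicate 1 or either shM3 library.

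In shM3_WT against shM3, none of the 17 epithelial genes was higher and 13 were lower, with a median of -0.77, against -0.08 over all genes, and 10 to 12 were lower when 1 library was left out. SPINT1, an inhibitor of matriptase-like proteases, fell by 1.65 ± 0.10 on the log2 scale (adjusted p = 6e-05), CGN by 2.32 ± 0.17 (adjusted p = 0.00013; it reached 1 FPKM in every group but shM3_WT) and DSP by 1.00 ± 0.10 (adjusted p = 0.00039). ST14, also lower, likewise reached 1 FPKM in every group but shM3_WT, so the filter favoured lower calls of CGN and ST14 in shM3_WT. In shM3_CD against shM3, 1 was higher (CLDN7, 0.78 ± 0.12, adjusted p = 0.0096) and 5 were lower, with a median of -0.44, against 0.01 over all genes. Among the lower were CGN (-1.05 ± 0.17, adjusted p = 0.012) and the tight junction scaffold TJP1 (-0.67 ± 0.12, adjusted p = 0.014), and 1 or 2 genes were lower without 1 library (1 without shM3 replicate 1, shM3 replicate 2 or shM3_CD replicate 1, and 2 without shM3_CD replicate 2), while CLDN7 was not called without either shM3 library. In the direct comparison of shM3_WT with shM3_CD, none was higher and 8 were lower, with a median of -0.47, against -0.08 over all genes, and 5 or 6 were lower without 1 library, 5 of them without shM3_WT replicate 2 or either shM3_CD library. SPINT1 (-1.56 ± 0.10, adjusted p = 0.00039), CLDN7 (-0.85 ± 0.12, adjusted p = 0.0038) and CLDN1 (-0.72 ± 0.10, adjusted p = 0.0039) were among them.

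Among the catenins and adapters that anchor cadherins to actin, JUP, CTNND1, VCL and CTNNAL1 were called. Of 7 tested, 4 were higher and none lower (1 lower without shM3 replicate 2) in shM3 against B5, and 4 were lower and none higher in shM3_WT against shM3. Plakoglobin (JUP), the catenin shared by adherens junctions and desmosomes, averaged 27.4 ± 0.329 FPKM in shM3_WT, 50.2 ± 2.33 FPKM in shM3_CD, 58.8 ± 5.68 FPKM in shM3 and 39.7 ± 3.85 FPKM in B5. It differed by 0.55 ± 0.10 in shM3 against B5 (adjusted p = 0.0054) and by -1.07 ± 0.10 in shM3_WT against shM3 (adjusted p = 0.00034). The p120 catenin gene CTNND1 differed by 0.63 ± 0.14 (adjusted p = 0.011) and -0.80 ± 0.14 (adjusted p = 0.0041) in the same pair of comparisons, and the actin-linking VCL by 0.58 ± 0.12 (adjusted p = 0.010) and -0.82 ± 0.12 (adjusted p = 0.0023). In shM3_CD against shM3, 2 were lower and none higher (CTNNAL1, -0.43 ± 0.07, adjusted p = 0.0097, and VCL, -0.53 ± 0.12, adjusted p = 0.037). No more than 1 gene was lower when a library was left out, and none without shM3 replicate 1 or either shM3_CD library.

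Of 26 further cadherin and protocadherin genes, 9 were tested in the knockdown table, and in shM3 against B5 none was higher and 6 were lower, with a median of -0.74, against 0.00 over all genes. The 6 include PCDH18, which reached 1 FPKM in B5 libraries only and so could only be lower. Without 1 library 4 to 7 were lower, with 4 without B5 replicate 2 or shM3 replicate 1. CDH11, a cadherin of mesenchymal cells and osteoblasts, averaged 32.0 ± 1.43 FPKM in shM3 and 71.9 ± 3.43 FPKM in B5 (-1.15 ± 0.09, adjusted p = 0.00022). The giant cadherin FAT1 averaged 37.0 ± 4.47 FPKM in shM3 and 78.9 ± 10.0 FPKM in B5 (-1.07 ± 0.15, adjusted p = 0.0018), and CDH24 fell by 0.98 ± 0.13 (adjusted p = 0.0013). In shM3_WT against shM3, 3 were higher, namely CDH11 (0.77 ± 0.09, adjusted p = 0.00097), CDH24 (0.72 ± 0.13, adjusted p = 0.0043) and FAT1 (0.57 ± 0.15, adjusted p = 0.021), and 2 lower, FAT4 (-0.50 ± 0.15, adjusted p = 0.033) and PCDH1, which were not called without any 1 of the 4 libraries.

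Other factors that drive EMT in various tissues were called in both directions. Of 16 listed, 9 were tested, and in shM3 against B5 2 were higher and 5 lower, with 2 higher and 4 lower in shM3_WT against shM3, and 2 higher and 3 lower in shM3_CD against shM3. The lower genes of shM3 against B5 include TCF4, which reached 1 FPKM in B5 libraries only and so could only be lower. SOX4 averaged 2.31 ± 0.104 FPKM in shM3_WT, 7.31 ± 0.514 FPKM in shM3_CD, 4.73 ± 0.021 FPKM in shM3 and 12.4 ± 1.13 FPKM in B5, lower in shM3 than in B5 (-1.22 ± 0.11, adjusted p = 0.0003) and lower still in shM3_WT than in shM3 (-0.79 ± 0.11, adjusted p = 0.0016). RUNX2, the osteoblast runt factor, was lower in shM3 than in B5 (-1.08 ± 0.12, adjusted p = 0.00062) and higher in shM3_WT than in shM3 (0.65 ± 0.12, adjusted p = 0.0046). FOSL1, an AP-1 subunit, was higher in shM3 than in B5 (0.64 ± 0.11, adjusted p = 0.0038) and higher again in shM3_WT than in shM3 (0.77 ± 0.11, adjusted p = 0.0018). Without shM3 replicate 2, 1 factor in place of 2 was higher in shM3 against B5. Without 1 library, the 4 lower genes of shM3_WT against shM3 became 1 (2 without shM3_WT replicate 1), and in shM3_CD against shM3 1 was lower and none higher, whichever library was left out.

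Corepressors are the chromatin proteins through which SNAIL and ZEB factors silence genes. Of 12 corepressor genes, all tested, in shM3 against B5 3 were higher and 5 lower, with 3 higher and 1 lower in shM3_WT against shM3. The last, the arginine methyltransferase PRMT5, was not called without shM3 replicate 2 or shM3_WT replicate 2. EZH2, the histone H3 lysine methyltransferase of Polycomb, averaged 33.7 ± 1.16 FPKM in shM3_WT, 16.1 ± 1.2 FPKM in shM3_CD, 11.9 ± 0.503 FPKM in shM3 and 34.4 ± 1.24 FPKM in B5 (-1.46 ± 0.09 in shM3 against B5, adjusted p = 7.1e-05, and 1.43 ± 0.09 in shM3_WT against shM3, adjusted p = 6.8e-05). The maintenance DNA methyltransferase DNMT1 was also lower in shM3 than in B5 (-0.65 ± 0.07, adjusted p = 0.00067) and higher in shM3_WT than in shM3 (0.76 ± 0.07, adjusted p = 0.00034). Of the corepressors, 2 were higher and none lower in shM3_CD against shM3 (EZH2, 0.40 ± 0.09, adjusted p = 0.029, and the ZEB partner CTBP2, 0.95 ± 0.24, adjusted p = 0.048). Neither was called without shM3 replicate 1, shM3 replicate 2 or shM3_CD replicate 1. The 5 lower genes of shM3 against B5 became 2 to 4 without 1 library, with 3 without B5 replicate 1 or shM3 replicate 1 and 2 without shM3 replicate 2, where 1 gene was higher.

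Of 18 TGF-beta pathway genes, all tested, in shM3 against B5 2 were higher (1 without shM3 replicate 2) and 5 lower, with 3 higher and 6 lower in shM3_WT against shM3, and 5 higher and 2 lower in shM3_CD against shM3. Of all genes, 37.8%, 39.4% and 11.4% were called in these comparisons, in that order. TGFBR1, the type I receptor, averaged 15.8 ± 2.88 FPKM in shM3_WT, 17.2 ± 2.13 FPKM in shM3_CD, 7.19 ± 1.90 FPKM in shM3 and 23.1 ± 2.95 FPKM in B5. It was lower in shM3 than in B5 (-1.57 ± 0.20, adjusted p = 0.0012) and higher than in shM3 in both shM3_WT (1.04 ± 0.20, adjusted p = 0.0060) and shM3_CD (1.16 ± 0.20, adjusted p = 0.013). The ubiquitin ligase SMURF2, which targets the receptors, was higher in shM3 than in B5 (1.45 ± 0.07, adjusted p = 3.4e-05) and lower in shM3_WT than in shM3 (-0.81 ± 0.07, adjusted p = 0.00023). INHBA, the activin A subunit, was lower in shM3 than in B5 (-0.65 ± 0.16, adjusted p = 0.017), and higher in shM3_WT (2.09 ± 0.16, adjusted p = 0.00014) and shM3_CD (1.13 ± 0.16, adjusted p = 0.0067) than in shM3, the one group in which it did not reach 1 FPKM. Without 1 library the 5 lower genes of shM3 against B5 became 2 (4 without B5 replicate 1), the 6 lower genes of shM3_WT against shM3 became 4 without shM3 replicate 2 and 5 without each other library, and the 5 higher genes of shM3_CD against shM3 became 2 (1 without shM3_CD replicate 2), with none lower in any of these fits.

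Of 13 genes tested that set the stability of SNAIL and ZEB proteins, in shM3 against B5 2 were higher and none lower, with 1 higher and 2 lower in shM3_WT against shM3, and none was called in shM3_CD against shM3. LATS2, a Hippo kinase that binds and phosphorylates Snail, was higher in shM3 than in B5 (0.63 ± 0.09, adjusted p = 0.0021) and lower in shM3_WT than in shM3 (-0.77 ± 0.09, adjusted p = 0.00081). The gene that was higher in shM3_WT than in shM3, the deubiquitinase PSMD14, was not called without any 1 of the 4 libraries. Of 6 lamin and filament partners of vimentin tested, 5 were lower and none higher in shM3 against B5, led by LMNB1, the lamin B1 gene, at 11.3 ± 0.787 FPKM in shM3 and 49.1 ± 4.64 FPKM in B5 (-2.02 ± 0.21, adjusted p = 0.00056). Without 1 library that number ran from 1 (without shM3 replicate 2) to 6, with 2 without B5 replicate 2 and 3 without shM3 replicate 1. Of 12 genes that cleave EPCAM or carry its intracellular signal, in shM3 against B5 1 was higher and 3 lower, with 2 higher and 1 lower in shM3_WT against shM3, where the protease BACE1 rose by 1.19 ± 0.12 (adjusted p = 0.00046). Without B5 replicate 1, 3 were higher in shM3 than in B5, and without shM3 replicate 1, 2 were lower in shM3_WT than in shM3.

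Basal or mesenchymal-like markers differed between these groups, while luminal markers were called in both directions in shM3 against B5. Of 5 basal or mesenchymal-like markers tested, 4 were lower in shM3 than in B5, among them CD44 at 26.8 ± 1.48 FPKM in shM3 and 123 ± 3.39 FPKM in B5 (-2.16 ± 0.17, adjusted p = 0.0002), and 3 were higher in shM3_WT than in shM3, among them CD44 (2.75 ± 0.17, adjusted p = 7.3e-05). Of 7 luminal markers tested, 2 were higher (KRT19 and ERBB3) and 1 lower (ELF3) in shM3 against B5, with a median of -0.07. That became 1 higher without B5 replicate 2 or shM3 replicate 2, and 2 lower without B5 replicate 2. In shM3_WT against shM3, none was higher and 5 were lower, or 3 without shM3 replicate 2 or either shM3_WT library. The keratin KRT19 differed by 0.97 ± 0.07 in shM3 against B5 (adjusted p = 0.00017) and by -0.94 ± 0.07 in shM3_WT against shM3 (adjusted p = 0.00016), and the epithelial transcription factor ELF3 by -1.17 ± 0.17 in shM3 against B5 (adjusted p = 0.0022). The luminal list summed to 1040 to 1070 FPKM in shM3 and 725 to 894 FPKM in B5, and the mesenchymal-like list to 536 to 550 FPKM in shM3 and 738 to 744 FPKM in B5. Their part in the result was not tested.

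**Figure D3:**
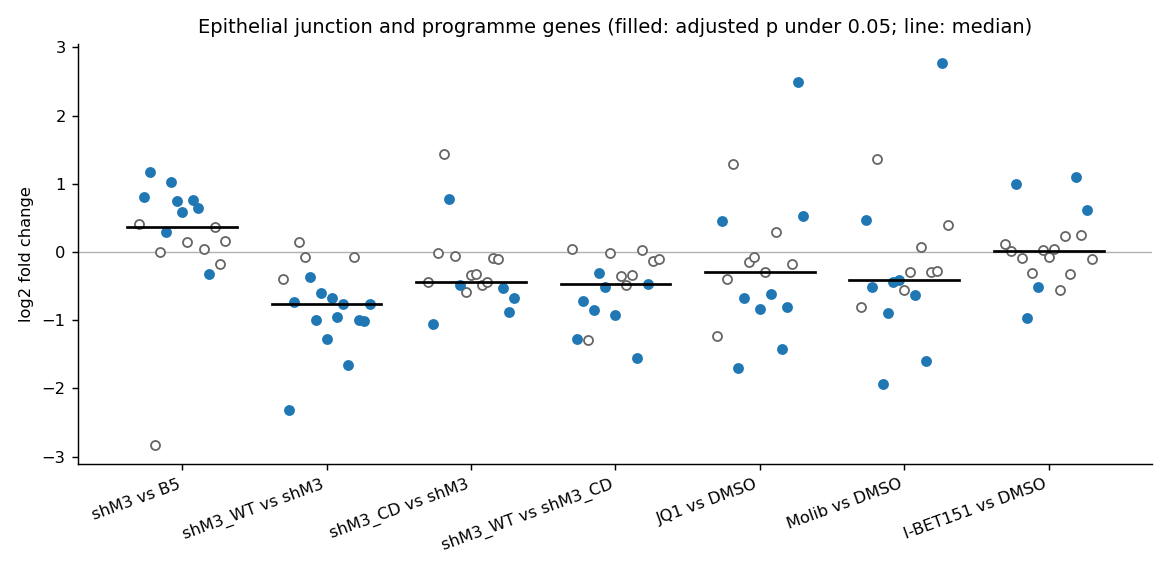
Log2 fold change (y axis, on the log2(FPKM + 1) scale) of the 17 epithelial programme genes tested, 1 point for each gene, in 7 comparisons (x axis), with filled points for adjusted p under 0.05 and a line at the median. The median is 0.36 in shM3 against B5, -0.77 in shM3_WT against shM3 and 0.01 in I-BET151 against DMSO.

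In the DMSO table, SNAI2 rose, and ZEB2 and EPCAM fell, in both JQ1 and Molib against DMSO, and ZEB1, VIM and CDH2 were not called. In the libraries labelled I-BET151, VIM alone was called, and it fell. In both JQ1 and Molib against DMSO, 3 of 6 members tested were called, 1 higher and 2 lower. Of all 14936 genes tested, 35.1% were called for JQ1, 14.5% higher and 20.6% lower, and 35.3% for Molib, 14.8% higher and 20.5% lower. In I-BET151 against DMSO, none was higher and 1 lower, where 28.0% of all genes were called, 13.9% higher and 14.1% lower. These comparisons share the DMSO libraries.

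**Figure D4:**
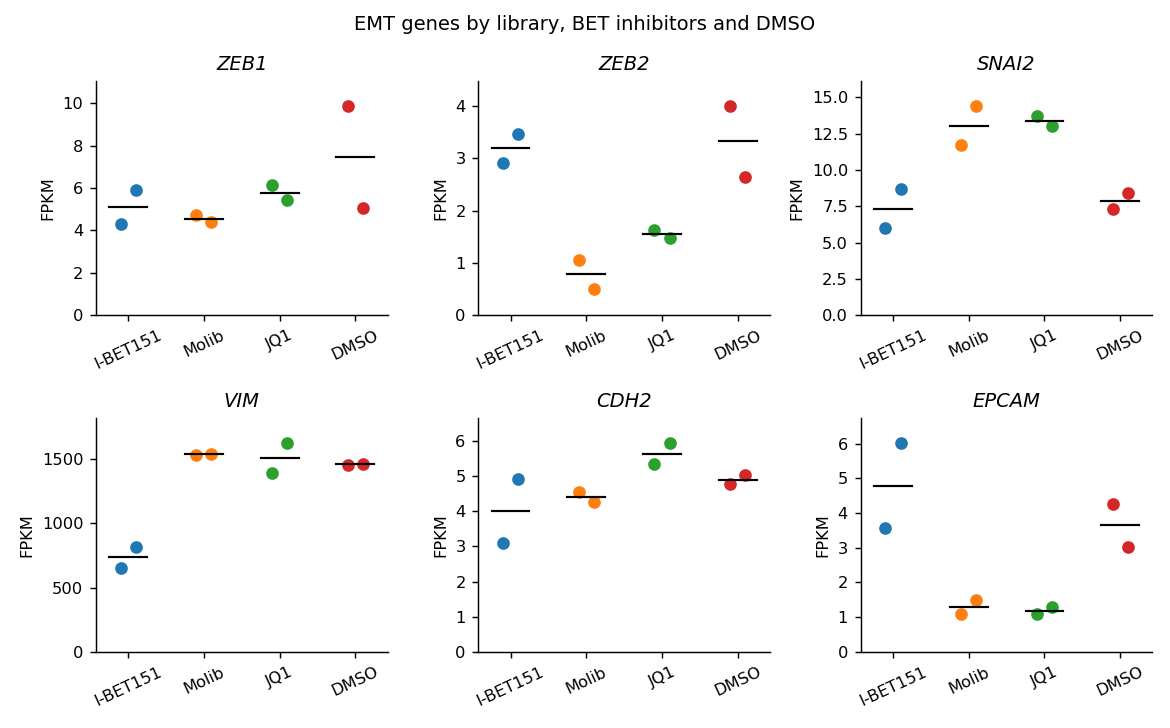
FPKM of the 6 members tested in the DMSO table, with 1 point for each library, a line at the mean of the 2 libraries and axes that start at 0. EPCAM and ZEB2 are lowest and SNAI2 highest in the Molib and JQ1 groups, and VIM is lowest in the libraries labelled I-BET151, at 650.5 and 818 FPKM.

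ZEB1 was at 4.32 and 5.89 FPKM in I-BET151, 4.70 and 4.41 FPKM in Molib, 6.12 and 5.42 FPKM in JQ1, and 9.86 and 5.07 FPKM in DMSO. The DMSO libraries differed from each other by more than any treated pair, and only Molib lay below both. The log2 fold change was -0.42 ± 0.26 for I-BET151 (adjusted p = 0.27), -0.55 ± 0.26 for Molib (adjusted p = 0.15) and -0.26 ± 0.26 for JQ1 (adjusted p = 0.47). Without DMSO replicate 2, ZEB1 was called lower in Molib (-0.97, adjusted p = 0.0205) and in I-BET151 (-0.84, adjusted p = 0.0421), and without DMSO replicate 1 the JQ1 difference turned to 0.15.

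ZEB2 was at 2.92 and 3.46 FPKM in I-BET151, 1.06 and 0.509 FPKM in Molib, 1.62 and 1.47 FPKM in JQ1, and 4.0 and 2.65 FPKM in DMSO. The Molib libraries were the lowest, the JQ1 libraries next, and neither overlapped DMSO. ZEB2 was 0.237 times as high in Molib as in DMSO (-1.27 ± 0.21, adjusted p = 0.0037) and 0.466 times as high in JQ1 as in DMSO (-0.75 ± 0.21, adjusted p = 0.031). The JQ1 call was lost with a pseudocount of 0.1 (adjusted p = 0.0553), with no filter on low genes (adjusted p = 0.0825) and without DMSO replicate 1 (-0.52, adjusted p = 0.162), JQ1 library a (-0.79, adjusted p = 0.0957) or JQ1 library b (-0.70, adjusted p = 0.124). In I-BET151 against DMSO the difference was -0.03, with a 95% interval of -0.53 to 0.46.

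SNAI2 was at 6.01 and 8.67 FPKM in I-BET151, 11.7 and 14.4 FPKM in Molib, 13.7 and 13.0 FPKM in JQ1, and 7.28 and 8.42 FPKM in DMSO. Both Molib and JQ1 lay above DMSO without overlap, and I-BET151 spanned the DMSO values. SNAI2 was 1.66 times as high in Molib as in DMSO (0.66 ± 0.18, adjusted p = 0.025) and 1.70 times as high in JQ1 as in DMSO (0.70 ± 0.18, adjusted p = 0.021). With no filter on low genes, adjusted p was 0.0577 for Molib and 0.0503 for JQ1. The JQ1 call was lost without DMSO replicate 1 (0.60, adjusted p = 0.109), DMSO replicate 2 (0.79, adjusted p = 0.0564), JQ1 library a (0.66, adjusted p = 0.0968) or JQ1 library b (0.73, adjusted p = 0.0747). The Molib call was lost without DMSO replicate 1 (0.57, adjusted p = 0.126), DMSO replicate 2 (0.76, adjusted p = 0.062) or Molib replicate 2 (0.53, adjusted p = 0.133).

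SNAI1 stayed under 1 FPKM, at 0.393 and 0.478 FPKM in I-BET151, 0.868 and 0.966 FPKM in Molib, 0.565 and 0.446 FPKM in JQ1, and 0.289 and 0.266 FPKM in DMSO. Every treated library was above both DMSO libraries, and Molib was highest. With no filter on low genes, SNAI1 was called higher in Molib than in DMSO (0.59 ± 0.09, adjusted p = 0.0098), but neither in JQ1 (0.24 ± 0.09, adjusted p = 0.14) nor in I-BET151 (0.17 ± 0.09, adjusted p = 0.32), at roughly 6.9 to 23 fragments a library. In the same setting SNAI1 was called lower in I-BET151 than in Molib (-0.42 ± 0.09, adjusted p = 0.023). TWIST1 was at 0.224 and 0.0954 FPKM in I-BET151, 0.386 and 0.496 FPKM in Molib, 0.315 and 0.366 FPKM in JQ1, and 1.37 and 0.373 FPKM in DMSO, with DMSO replicate 1 alone above 1 FPKM. It was not called in any of these comparisons with no filter, at an adjusted p of 0.16 or more.

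VIM was at 650.5 and 818 FPKM in I-BET151, 1529 and 1543.5 FPKM in Molib, 1388 and 1627 FPKM in JQ1, and 1458 and 1462 FPKM in DMSO. The libraries labelled I-BET151 lay far below the other 6. VIM averaged 734 ± 119 FPKM in I-BET151 and 1460.0 ± 2.86 FPKM in DMSO (SD, n = 2 each), 0.503 times as high (-1.0 ± 0.13, adjusted p = 0.0022). For JQ1 the difference was 0.04, with a 95% interval of -0.27 to 0.35, and for Molib it was 0.07, with an interval of -0.24 to 0.38. VIM-AS1 was again high in 1 library and low in the other of each group, for example at 394.9 and 37.7 FPKM in I-BET151 and 707.6 and 74.3 FPKM in DMSO.

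**Figure D5:**
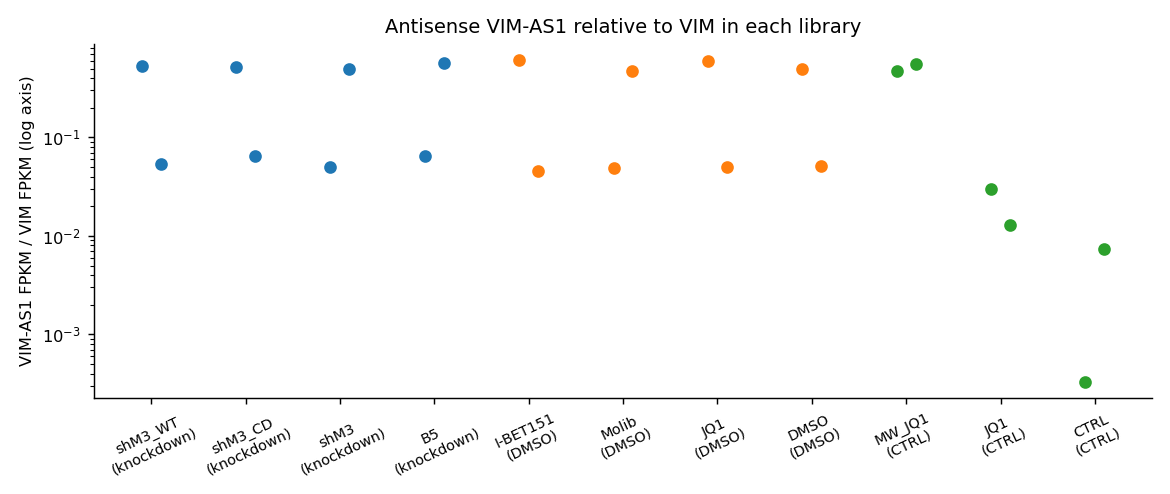
Ratio of VIM-AS1 to VIM in FPKM (y axis, log scale) in each library of the 3 tables (x axis, by group). In the knockdown and DMSO tables each group has 1 library at 0.046 to 0.064 and 1 at 0.47 to 0.61.

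CDH2 was at 3.09 and 4.93 FPKM in I-BET151, 4.55 and 4.27 FPKM in Molib, 5.34 and 5.95 FPKM in JQ1, and 4.79 and 5.02 FPKM in DMSO. No treated group was called against DMSO, with log2 fold changes of -0.26 ± 0.18 for I-BET151, -0.13 ± 0.18 for Molib and 0.17 ± 0.18 for JQ1 (adjusted p = 0.32, 0.62 and 0.50 in that order). Without I-BET151 replicate 2, the higher of its libraries, CDH2 was called lower there (-0.53, adjusted p = 0.0319). CDH1 was at 0.135 and 0.0637 FPKM in I-BET151, was listed at 0 in both Molib and both JQ1 libraries, and was at 0.416 and 0.159 FPKM in DMSO. Both DMSO libraries were above every treated library. With no filter, the log2 difference was -0.22 ± 0.09 for I-BET151 (adjusted p = 0.20) and -0.36 ± 0.09 for both Molib and JQ1 (adjusted p = 0.051 each).

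EPCAM was at 3.56 and 6.02 FPKM in I-BET151, 1.1 and 1.48 FPKM in Molib, 1.08 and 1.28 FPKM in JQ1, and 4.26 and 3.03 FPKM in DMSO. Molib and JQ1 lay below DMSO without overlap, and I-BET151 overlapped DMSO. EPCAM was 0.354 times as high in Molib as in DMSO (-1.01 ± 0.23, adjusted p = 0.014) and 0.324 times as high in JQ1 as in DMSO (-1.08 ± 0.23, adjusted p = 0.012). The JQ1 call was lost without DMSO replicate 1 (-0.89, adjusted p = 0.0726) or JQ1 library a (-1.01, adjusted p = 0.0651), and the Molib call without DMSO replicate 1 (-0.82, adjusted p = 0.0875) or Molib replicate 1 (-0.89, adjusted p = 0.0787). Without DMSO replicate 1, no member was called for JQ1 and 1 for Molib, and without JQ1 library a none was called for JQ1.

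The compounds were given at the same dose for the same time, and 3 pairs of them were compared. Between Molib and JQ1 no gene of the table was called by limma (0.0%), and 1227 genes had an unadjusted p under 0.05. The members' intervals were -0.48 to 0.62 for EPCAM, -0.45 to 0.38 for SNAI2, -0.28 to 0.34 for VIM and -0.90 to 0.34 for ZEB1. For ZEB2, at 1.06 and 0.509 FPKM in Molib and 1.62 and 1.47 FPKM in JQ1, the difference was -0.53, with an interval of -1.02 to -0.03 and an adjusted p of 0.58. The libraries labelled I-BET151 differed from both. Against JQ1, 2 of 6 members were higher and 2 lower, where 44.6% of all genes were called, 24.6% higher and 20.1% lower. Against Molib, 2 were higher and 2 lower, where 43.5% were called, 23.6% higher and 19.9% lower. EPCAM was 4.06 times as high in I-BET151 as in JQ1 (1.38 ± 0.23, adjusted p = 0.0029) and 3.72 times as high as in Molib (1.31 ± 0.23, adjusted p = 0.0037). ZEB2 was higher by 0.72 ± 0.21 (adjusted p = 0.028) than in JQ1 and by 1.24 ± 0.21 (adjusted p = 0.0030) than in Molib. SNAI2 was lower, at -0.80 ± 0.18 against JQ1 (adjusted p = 0.0092) and -0.76 ± 0.18 against Molib (adjusted p = 0.011), and so was VIM, at -1.04 ± 0.13 (adjusted p = 0.00081) and -1.07 ± 0.13 (adjusted p = 0.00074). The ZEB2 call against JQ1 was lost with a pseudocount of 0.1 (adjusted p = 0.0512), with no filter (adjusted p = 0.077) and without any 1 of the 4 libraries, at log2 fold changes of 0.62 to 0.81 (adjusted p of 0.0543 to 0.115), the SNAI2 call against JQ1 without JQ1 library a (-0.76, adjusted p = 0.0517), which left 2 members called, and the SNAI2 call against Molib without Molib replicate 2 (-0.63, adjusted p = 0.071). Without I-BET151 replicate 2, CDH2 was called lower in I-BET151 than in JQ1 (-0.70, adjusted p = 0.00768) and than in Molib (-0.40, adjusted p = 0.0485).

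Epithelial programme genes were called in both directions under the inhibitors. Counts in this and the following gene lists are to be read against the share of all genes called. Against DMSO that share was 35.1% for JQ1, 35.3% for Molib and 28.0% for I-BET151. Of 17 epithelial genes tested, 3 were higher and 6 lower in JQ1 against DMSO (median -0.30, against -0.04 over all genes), 2 higher and 7 lower in Molib against DMSO (median -0.41, against -0.03), and 3 higher and 2 lower in I-BET151 against DMSO (median 0.01, against 0.00). Of the lower genes, DSC2 and ESRP2 reached 1 FPKM only in DMSO and I-BET151 libraries, and SPINT1 in no JQ1 library. So the filter favoured lower calls of these genes in JQ1, and of DSC2 in Molib. CLDN1, higher in I-BET151, reached 1 FPKM in libraries of that group only, so there it could only be higher. The claudin gene CLDN7 fell by 1.93 ± 0.16 in Molib (adjusted p = 0.00023) and by 1.70 ± 0.16 in JQ1 (adjusted p = 0.00038), and the plakophilin gene PKP3 by 1.60 ± 0.19 (adjusted p = 0.00095) and 1.42 ± 0.19 (adjusted p = 0.0017). Without 1 library, 1 was higher and 2 to 5 lower for JQ1 (2 without DMSO replicate 1 or JQ1 library a), and 1 was higher and 3 or 4 lower for Molib (4 without Molib replicate 1). The 2 lower genes of I-BET151 became 1 without either DMSO library or I-BET151 replicate 1.

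Of the other gene groups in the DMSO table, catenins and adapters gave 1 gene higher and none lower among 7 tested in both JQ1 and Molib. It was AFDN, the afadin gene, at 0.60 ± 0.11 (adjusted p = 0.0051) in JQ1 and 0.58 ± 0.11 (adjusted p = 0.0056) in Molib. In I-BET151, 1 was lower, CTNND1 (-0.77 ± 0.12, adjusted p = 0.0045). Without Molib replicate 1, 2 were higher in Molib, and without I-BET151 replicate 1, 1 was higher in I-BET151. Of 9 other cadherins tested, 3 were higher and 1 lower in JQ1, led by PCDH9 (1.01 ± 0.14, adjusted p = 0.0017) and PCDH10 (1.15 ± 0.16, adjusted p = 0.0018), and 3 were higher and 3 lower in Molib. PCDH9 and PCDH10 reached 1 FPKM in JQ1 and Molib libraries only, so there they could only be higher. In I-BET151, 3 were higher and CDH4 (R-cadherin) was lower, at 1.23 ± 0.0505 FPKM in I-BET151 and 7.93 ± 0.0267 FPKM in DMSO (-2.0 ± 0.12, adjusted p = 9.3e-05). The lower gene of JQ1, FAT1, was not called without either DMSO library or JQ1 library a. The lower genes of Molib were 0 to 2 without 1 library (2 without Molib replicate 1), and the higher genes of I-BET151 0 to 2 (0 without DMSO replicate 2, 1 without DMSO replicate 1 or I-BET151 replicate 2).

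Of 9 other EMT factors tested, 2 were higher and 6 lower in JQ1, none higher and 5 lower in Molib, and none higher and 4 lower in I-BET151. SOX4 was higher in JQ1 (0.51 ± 0.11, adjusted p = 0.0097) and lower in I-BET151 (-1.18 ± 0.11, adjusted p = 0.00052), and FOXC1 likewise was higher in JQ1 (0.63 ± 0.10, adjusted p = 0.0028) and lower in I-BET151 (-0.92 ± 0.10, adjusted p = 0.00085). The E-protein TCF3 was lower in all 3, at -0.80 ± 0.17 in JQ1 (adjusted p = 0.011), -0.86 ± 0.17 in Molib (adjusted p = 0.0078) and -0.61 ± 0.17 in I-BET151 (adjusted p = 0.035). The 2 higher genes of JQ1 became 1 without DMSO replicate 1, JQ1 library a or JQ1 library b. Without 1 library, 1 factor was lower for JQ1 (4 without JQ1 library b), and 2 to 4 for Molib (2 without Molib replicate 1, 3 without DMSO replicate 1 or Molib replicate 2).

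Of 12 corepressors, 1 was higher and 4 lower in JQ1, 1 higher and 3 lower in Molib, and 1 higher and 4 lower in I-BET151. EZH2 fell by 0.69 ± 0.13 in JQ1 (adjusted p = 0.0058), by 0.84 ± 0.13 in Molib (adjusted p = 0.0024) and by 1.63 ± 0.13 in I-BET151 (adjusted p = 0.0003). AJUBA, a LIM protein that brings PRMT5 to Snail, rose by 0.51 ± 0.12 (adjusted p = 0.014), 0.61 ± 0.12 (adjusted p = 0.0063) and 0.75 ± 0.12 (adjusted p = 0.0039) in the same order. AJUBA was not called for JQ1 without DMSO replicate 1 or JQ1 library a, and without Molib replicate 2 2 genes were higher in Molib. Without 1 library the lower genes were 1 to 3 for JQ1 (1 without DMSO replicate 1 or JQ1 library a, 2 without JQ1 library b), 1 or 2 for Molib (2 without Molib replicate 1) and 2 to 6 for I-BET151 (2 without either DMSO library, 6 without I-BET151 replicate 2).

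Of 18 TGF-beta pathway genes, 2 were higher and 7 lower in JQ1, 2 higher and 6 lower in Molib, and 5 higher and 1 lower in I-BET151. INHBA, lower in JQ1 and Molib, reached 1 FPKM in DMSO and I-BET151 libraries only. In JQ1 and Molib it could therefore only be lower. The ligand gene TGFB1 was higher in JQ1 (0.76 ± 0.10, adjusted p = 0.0015) and Molib (0.76 ± 0.10, adjusted p = 0.0013), and TGFB2 was lower in JQ1 (-1.23 ± 0.17, adjusted p = 0.0019), Molib (-1.53 ± 0.17, adjusted p = 0.00074) and I-BET151 (-0.69 ± 0.17, adjusted p = 0.023). The lower genes were 6 or 7 for JQ1 and 4 to 6 for Molib without 1 library, while the higher genes of I-BET151 were 1 to 4 (1 without DMSO replicate 1, 2 without DMSO replicate 2, 3 without I-BET151 replicate 2), and TGFB2 was not called there without either DMSO library or I-BET151 replicate 1.

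Among 8 filament partners of vimentin tested, 4 were higher and 3 lower in both JQ1 and Molib, and none higher and 3 lower in I-BET151. GFAP, among the lower genes of Molib, reached 1 FPKM in no Molib library, so the filter favoured that direction. PLEC, the cytolinker plectin, averaged 453 ± 14.6 FPKM in Molib, 404 ± 3.76 FPKM in JQ1 and 135 ± 1.45 FPKM in DMSO (1.74 ± 0.11, adjusted p = 7.7e-05 in Molib, and 1.57 ± 0.11, adjusted p = 0.00012 in JQ1), and LMNB1 was lower in JQ1 (-1.98 ± 0.13, adjusted p = 0.00012), Molib (-2.18 ± 0.13, adjusted p = 7.7e-05) and I-BET151 (-1.09 ± 0.13, adjusted p = 0.0016).

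Luminal markers were called in both directions in JQ1 and Molib. In each, 3 of 7 tested were higher (KRT19, KRT8 and KRT18) and 2 lower (GATA3 and MUC1), with a median of 0.13 in Molib and -0.37 in JQ1. The lower genes became 1 for Molib without DMSO replicate 1 or either Molib library and 1 for JQ1 without DMSO replicate 1 or JQ1 library b. GATA3, a luminal transcription factor, averaged 1.78 ± 0.132 FPKM in Molib, 1.6 ± 0.114 FPKM in JQ1 and 3.87 ± 0.548 FPKM in DMSO (-0.80 ± 0.14, adjusted p = 0.0041 in Molib, and -0.90 ± 0.14, adjusted p = 0.0027 in JQ1). MUC1 reached 1 FPKM in DMSO and I-BET151 libraries only, so in JQ1 and Molib it could only be lower. KRT19 averaged 927 ± 44.2 FPKM in Molib, 981 ± 12.1 FPKM in JQ1 and 238 ± 13.9 FPKM in DMSO (1.96 ± 0.09, adjusted p = 2.7e-05 in Molib, and 2.04 ± 0.09, adjusted p = 2.1e-05 in JQ1). The luminal list summed to 739 to 740.0 FPKM in I-BET151, 1550 to 1600 FPKM in Molib, 1630 to 1640 FPKM in JQ1 and 600 to 601 FPKM in DMSO, of which keratins made up most. The mesenchymal-like list summed to 546 to 568 FPKM in I-BET151, 562 to 575 FPKM in Molib, 470 to 471 FPKM in JQ1 and 551 to 568 FPKM in DMSO. The part of these markers in the members' differences was not tested.

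In the CTRL table no member was called in any comparison. Of the 6 listed members, 5 were tested, and SNAI1 was too low. Between JQ1 and CTRL no gene of the 13261 tested was called (0.0%), while 2048 had an unadjusted p under 0.05. In MW_JQ1 against JQ1 15.2% of all genes were called, 13.5% higher and 1.62% lower, and in MW_JQ1 against CTRL 15.1%, 13.3% higher and 1.88% lower. The median log2 fold change over all genes was 0.75 and 0.61 in these last comparisons, 0.15 and 0.14 after scaling to equal medians, so the members' values are to be read against those shifts. The most abundant gene was RN7SL1 in the JQ1 and CTRL libraries, at 37400 to 52900 FPKM, and EEF1A1 or S100A6 in MW_JQ1. The ratio of VIM-AS1 to VIM was 0.00033 to 0.03 in JQ1 and CTRL, and 0.47 and 0.56 in MW_JQ1. The MW label cannot be told apart from this difference between libraries, whose source was not tested.

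ZEB1 was at 7.10 and 9.91 FPKM in MW_JQ1, 16.1 and 10.1 FPKM in JQ1, and 16.3 and 16.4 FPKM in CTRL. The MW_JQ1 libraries were below all others. The log2 fold change was -0.88 ± 0.44 in MW_JQ1 against CTRL (adjusted p = 0.28), -0.55 ± 0.44 in MW_JQ1 against JQ1 (adjusted p = 0.47) and -0.33 ± 0.44 in JQ1 against CTRL (adjusted p = 0.78). ZEB2 was at 1.66 and 2.46 FPKM in MW_JQ1, 0.120 and 0.572 FPKM in JQ1, and 3.01 and 0.370 FPKM in CTRL. Only the JQ1 value of 0.120 FPKM lay outside the range of the CTRL libraries. SNAI1 was at 0.804 and 1.1 FPKM in MW_JQ1 and was listed at 0 in both JQ1 and both CTRL libraries.

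SNAI2 was at 12.4 and 11.3 FPKM in MW_JQ1, 16.7 and 2.64 FPKM in JQ1, and 11.4 and 18.7 FPKM in CTRL. The JQ1 libraries differed from each other by more than any groups did. VIM was at 1181 and 849 FPKM in MW_JQ1, 860.3 and 848 FPKM in JQ1, and 807 and 1085 FPKM in CTRL, with the groups overlapping. The log2 fold change of VIM in JQ1 against CTRL was -0.13, with a 95% interval of -0.76 to 0.50, and turned to 0.05 under equal medians. EPCAM was at 4.32 and 3.92 FPKM in MW_JQ1, 2.02 and 0.478 FPKM in JQ1, and 10.1 and 0 FPKM in CTRL. A difference in EPCAM between JQ1 and CTRL could not be shown by libraries that ranged this widely, with an interval of -3.87 to 2.55.

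Between the tables only levels can be set side by side, since the tables may have been processed separately and were not tested against each other. Over the 8 libraries of the knockdown table the medians were 834 FPKM for VIM, 17.1 FPKM for SNAI2, 8.29 FPKM for EPCAM, 7.29 FPKM for ZEB1, 2.67 FPKM for ZEB2, 1.43 FPKM for CDH2, 0.292 FPKM for SNAI1, 0.194 FPKM for CDH1 and 0 FPKM for TWIST1. The medians over the 8 libraries of the DMSO table were 1460.0 FPKM for VIM, 10.2 FPKM for SNAI2, 5.24 FPKM for ZEB1, 4.86 FPKM for CDH2, 2.25 FPKM for EPCAM and 2.14 FPKM for ZEB2.

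Likeness of pattern was described over the 16 libraries that the knockdown table and the DMSO table hold, after the mean of each table was subtracted, for the members at a mean of 5 FPKM or more in both. These libraries share tables and groups, so the correlations are descriptions with no test. VIM was most like EZR (Pearson r = 0.951), UFD1 (r = 0.93) and SLIT2 (r = 0.929) among 8696 genes. SNAI2 was most like FBXO38 (r = 0.93), RTEL1 (r = 0.928) and ARHGAP12 (r = 0.917). ZEB1 was less closely matched, by TAOK1 (r = 0.821), PPFIBP1 (r = 0.767) and SMARCE1 (r = 0.731).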

How the data were processed

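RNA was measured by RNA-seq in 22 libraries. The 3 tables are the authors' deposited FPKM values, a unit given in the name of 1 table and inferred from the values of the other 2. The tools and build named per the submitters' processing notes are HISAT2 2.1.0, Cufflinks 2.2.1, CASAVA 1.4 and hg38, and use of strand in counting is not given in the sources used here. Protocols in the labels describe more than 1 library preparation without saying which samples had which. FPKM hold no read counts, so depth is unknown and no counting interval is given; the rough fragment numbers printed for members of the knockdown and DMSO tables come from taking the commonest lowest value of FPKM times length, over genes with 1 transcript, as 1 fragment.

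Libraries were grouped by their labels, and limma 3.58.1 in R 4.3.3 (lmFit, contrasts, eBayes with trend) was run on log2(FPKM + 1) with every group of a table in one model. Genes were tested if 2 or more libraries reached 1 FPKM, with Benjamini-Hochberg adjustment over all genes tested and a threshold of 0.05. Fold changes on this scale understate the change of low genes. Python 3.11.15, pandas 2.3.3 and matplotlib 3.10.9 made tables and figures. Alternatives were a replicate block, the compared groups alone, a pseudocount of 0.1, no filter, equal medians and each library left out; 1 more, crossed replicate numbers for I-BET151, was added after seeing the data. Same-numbered libraries did not deviate together (correlations of -0.12 to 0.042), so the numbers were not used as pairs. The members and gene lists were chosen with earlier results of these data known. All 9 members are named, and from each list up to 4 called genes with the smallest adjusted p, or 2 with the highest mean where none was called; genes named beside a call that 1 library decides were chosen after their values were seen. For likeness, 3 genes were named per member. Some genes that this rule names are not reported here. On simulated data made from these tables, the test recovered 100% of genes changed by a log2 fold of 1 in shM3 against B5 (14204 genes) and in JQ1 against DMSO (14318 genes), but 5.0% in MW_JQ1 against JQ1 (12337 genes). Changes were put only into genes with a mean log2(FPKM + 1) above 2, with a spread smoothed over genes. CDH2 and ZEB2 in the knockdown table, and ZEB2 and EPCAM in the DMSO table, lie below that level. The shares recovered therefore do not cover them.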

Additional observations from a re-analysis of the deposited data

How the results depend on the processing

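Over 15 comparisons and 87 tests of members, 30 calls were made. All 30 kept their direction under every alternative run, 23 stayed called under every alternative other than leaving out a library, and 17 under all of them. For shM3_CD against shM3, 0 members were called with these groups alone and 0 to 0 without 1 library. Without 1 library, 2 to 3 members were called for shM3_CD against B5, 0 to 2 for JQ1 against DMSO, 1 to 3 for Molib against DMSO, 1 to 2 for I-BET151 against DMSO and 2 to 4 for I-BET151 against JQ1. With no filter, 1 member was called for JQ1 against DMSO, and 1, SNAI1, for MW_JQ1 against JQ1 and against CTRL. SNAI1 is listed at 0 in all JQ1 and CTRL libraries of the CTRL table, and is not read as a difference there. Under equal medians, VIM turned to 0.05 in JQ1 against CTRL, -0.53 in MW_JQ1 against JQ1 and -0.49 in MW_JQ1 against CTRL, where ZEB2 turned to -0.03; with a pseudocount of 0.1, EPCAM turned to 0.13 in JQ1 against CTRL. Uncalled differences that changed sign without 1 library had these ranges: in shM3 against B5, EPCAM -0.07 to 0.11; in shM3_WT against shM3, ZEB1 -0.30 to 0.14 and CDH2 -0.29 to 0.04; in shM3_WT against B5, ZEB2 -0.08 to 0.11; in shM3_CD against B5, ZEB1 -0.21 to 0.23; in JQ1 against DMSO, ZEB1 -0.68 to 0.15 and VIM -0.07 to 0.16. For I-BET151 against DMSO they were ZEB2 -0.26 to 0.20, SNAI2 -0.33 to 0.13, CDH2 -0.53 to 0.01 and EPCAM -0.01 to 0.61; for Molib against JQ1, SNAI2 -0.17 to 0.10, VIM -0.08 to 0.15 and EPCAM -0.05 to 0.19; for I-BET151 against JQ1, ZEB1 -0.34 to 0.03; and for I-BET151 against Molib, ZEB1 -0.06 to 0.31 and CDH2 -0.40 to 0.13. In JQ1 against CTRL they were SNAI2 -2.10 to 0.17, VIM -0.35 to 0.08 and EPCAM -2.39 to 1.08; in MW_JQ1 against JQ1, SNAI2 -0.46 to 1.82 and VIM -0.01 to 0.47; and in MW_JQ1 against CTRL, ZEB2 -0.40 to 1.15, SNAI2 -0.62 to 0.04, VIM -0.14 to 0.34 and EPCAM -1.12 to 2.36. The cause of these changes was not tested. The replicate block called ZEB1 lower in shM3 against B5 (-0.43, adjusted p = 0.0389), shM3_WT against shM3_CD (-0.52, adjusted p = 0.0316) and shM3_WT against B5 (-0.51, adjusted p = 0.0277) and changed no other member's call; comparisons with the JQ1 libraries of the DMSO table could not have one. Over all genes, calls for shM3_CD against shM3 were 505 to 587 without 1 library, against 1670 with all, and calls for I-BET151 against DMSO, 4181 in all, were 2310 with these groups alone, 2697 with the block and 2942 with its numbers crossed. CDH1, SNAI1 and TWIST1 were too low for a firm statement.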
